A study of Arabidopsis thaliana with 12 samples.

Results

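The comparison described here set mutant shoots against wild type shoots after both had received trans-zeatin (tZ), a natural cytokinin. It took 6 of the 12 Affymetrix ATH1 arrays of an Arabidopsis thaliana study, chosen by their titles: 3 arrays of tZ-treated mutant plants and 3 of tZ-treated wild type plants. RNA came from the aerial parts of seedlings grown for 2 weeks on vertical agar plates of Murashige and Skoog salts. The mutant groups are labelled SALK_098604, SALK_054752, which are known as T-DNA insertion lines of ARR10 and ARR12, and the wild type is Col-0. The mutant sprayed for 1 h with 20 µM tZ and the wild type sprayed in the same way make up the comparison. The mutant and the wild type sprayed for 1 h with 0.02% DMSO, the solvent, hold 3 arrays each and show the level without added cytokinin. Whether both insertions were combined in 1 plant is not stated in the labels, and each gene is represented by 1 insertion line. Separate cultures for the 3 arrays of a group are not stated either, so the p-values rest on array-to-array spread that may be technical.

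Cytokinins are sensed by histidine kinase receptors, which pass a phosphate through carrier proteins to the response regulators of the nucleus. Type-B regulators, among them ARR10 and ARR12, are transcription factors that switch on cytokinin-responsive genes. Type-A regulators are among the genes they switch on, and act back on the pathway as repressors. In shoots this pathway is known for its part in cell division, leaf growth and chloroplast development.

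The value of a probe set is its MAS5 signal, an intensity on a linear scale, and 22746 probe sets were tested on log2(signal + 10). A log2 difference is the mutant minus the wild type on that scale, which understates the change of dim probe sets. The 27 probe sets for absent bacterial genes had a median signal of 0.900 and a highest signal of 11.2, and a signal below that maximum is not told apart from a transcript that is missing. No probe set is named ARR10 or ARR12 in the annotation used here, so the mutated genes were not read by name. The 6 tZ arrays had medians of 33.8 to 34.7. Arrays of the same genotype correlated at r = 0.989 to 0.992 across probe sets and arrays of the other genotype at 0.989 to 0.991. The shoot markers LHCB4.1, LHCB4.2 and PORB summed to 9012 to 10870 on the mutant tZ arrays and 9695 to 10770 on the wild type tZ arrays. Of 8 listed root markers 4 were measured, and only PYK10 lay above the absent-control maximum. Their sum was 511 to 755 in the mutant and 501 to 581 in the wild type, with overlap. The 5' to 3' signal ratio of GAPDH, a measure of RNA and labelling quality, was 0.704 to 0.747 on the mutant tZ arrays and 0.787 to 0.837 on the wild type tZ arrays, without overlap. The actin ratio was 0.252 to 0.289 in the mutant and 0.272 to 0.328 in the wild type, with overlap. The part of the GAPDH difference in the results was not tested.

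Under tZ, 8 of 22746 probe sets passed between mutant and wild type, which is 0.0352% of those tested (limma, Benjamini-Hochberg adjusted p under 0.05). The mutant was lower for 7 of them (0.0308%) and higher for 1 (0.0044%). The 3 that name a gene are ARR15, ARR16 and UGT76C2, and all were lower in the mutant. The other 5 have no gene in the annotation and are given by their probe set identifiers. Without adjustment, 1265 of the 22746 had p under 0.05. A share of 0.05 would be expected where no probe set differs, so this count alone is weak evidence of differences.

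**Figure D1:**
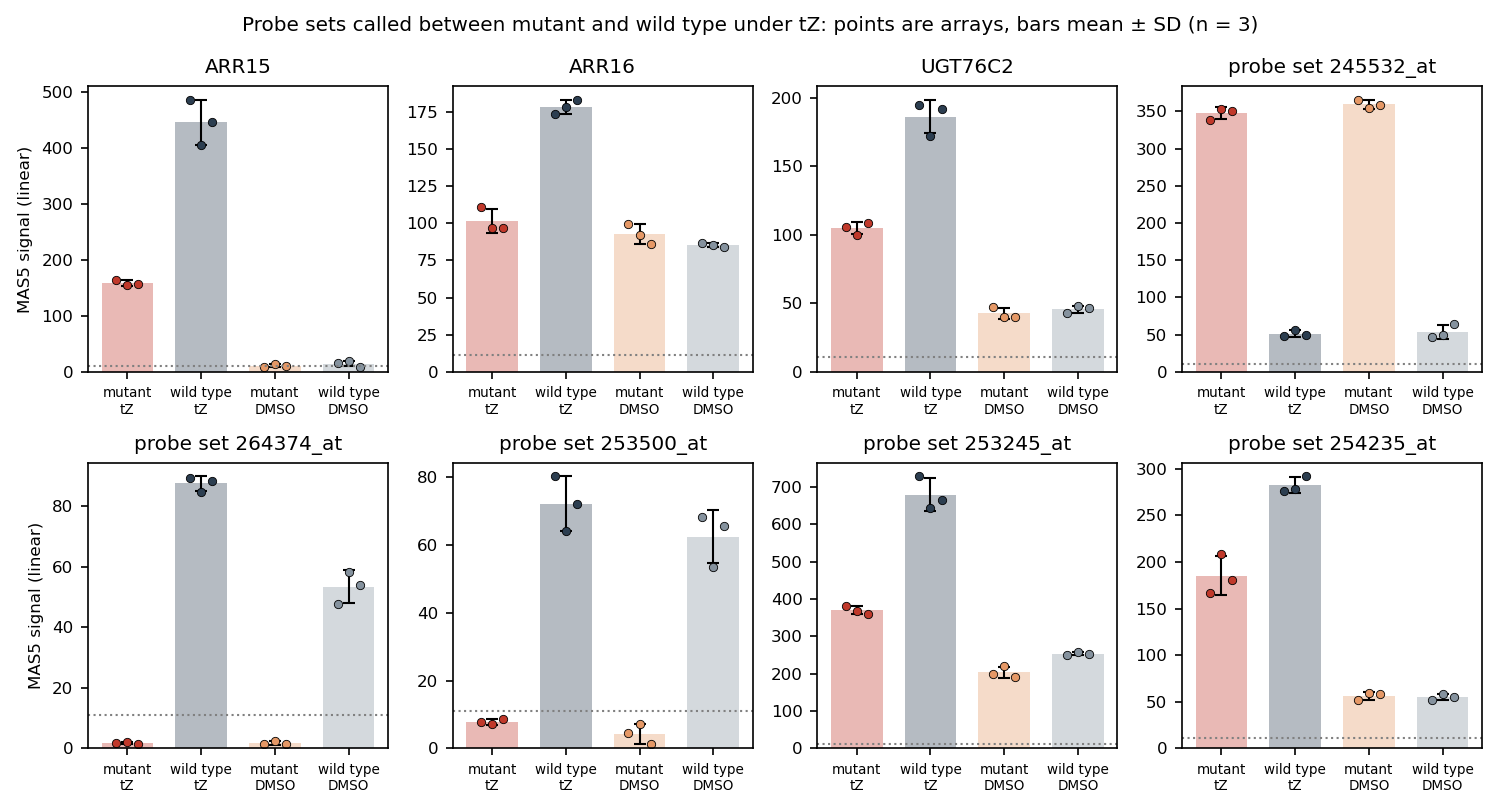
MAS5 signal (vertical axis, linear, starting at 0) of the 8 probe sets that passed between mutant and wild type under tZ, with 1 panel each. Points are arrays, bars are means with SD (n = 3), and the dotted line is the highest absent-control signal of 11.2. In each panel the 3 mutant tZ arrays lie apart from the 3 wild type tZ arrays, and 3 of the unnamed probe sets also differ between the DMSO groups.

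ARR15 (AT1G74890) encodes a type-A response regulator and is a known early target of cytokinin. Its signal was 164, 154 and 156 on the mutant tZ arrays, against 487, 407 and 446 on the wild type tZ arrays. Every mutant array was thus well below every wild type array, and the mutant mean was 0.355 times the wild type mean. The log2 difference was -1.44 (SE 0.14, 95% interval -1.74 to -1.14, limma adjusted p = 4.4e-04). With DMSO the signal was 8.91, 13.7 and 10.9 in the mutant, against 16.0, 18.9 and 9.10 in the wild type. These DMSO groups overlap and lie near the absent-control maximum (log2 difference -0.21, SE 0.14, adjusted p = 0.69). With tZ the signal was thus far above background in both genotypes, and the tZ comparison does not rest on dim values.

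ARR16 (AT2G40670), the other measured type-A regulator, had a different profile. Its signal was 111, 97.1 and 97.0 on the mutant tZ arrays, against 173, 178 and 183 on the wild type tZ arrays (log2 difference -0.75, SE 0.08, 95% interval -0.92 to -0.59, limma adjusted p = 7.1e-04). Without added cytokinin it was already well above background, at 99.8, 91.9 and 86.3 in the mutant, against 87.0, 85.3 and 84.3 in the wild type (log2 difference 0.10, SE 0.08, adjusted p = 0.73). The mutant means were 102 ± 8.16 with tZ and 92.7 ± 6.77 with DMSO, while the wild type means were 178 ± 4.99 with tZ and 85.5 ± 1.37 with DMSO (SD, n = 3). The difference between the genotypes in their change with tZ was -0.86 (SE 0.11), and its adjusted p of 0.054 missed the threshold. For ARR15 that difference was -1.23 (SE 0.20, adjusted p = 0.18). The other 8 listed type-A regulators have no probe set that names them alone and were not analysed here.

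UGT76C2 (AT5G05860) encodes a glucosyltransferase that inactivates cytokinins by adding glucose to the ring nitrogens. Its signal was 106, 100.1 and 109 on the mutant tZ arrays, against 195, 172 and 192 on the wild type tZ arrays. The groups lie far apart, with a mutant mean 0.562 times that of the wild type (log2 difference -0.77, SE 0.09, 95% interval -0.96 to -0.58, adjusted p = 0.0019). With DMSO the means were 42.7 ± 4.29 in the mutant and 45.8 ± 2.53 in the wild type (log2 difference -0.08, adjusted p = 0.82). Its neighbour in sequence and function, UGT76C1, read 48.9, 41.2 and 50.5 in the mutant and 52.2, 50.1 and 52.4 in the wild type under tZ, and the groups overlap (log2 difference -0.12, 95% interval -0.36 to 0.13). The probe sets of close paralogs can share signal.

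Of the 5 unnamed calls, 3 differed between the genotypes under both treatments. Probe set 264374_at read 1.87, 2.00 and 1.36 on the mutant tZ arrays, against 89.4, 84.9 and 88.6 on the wild type tZ arrays (log2 difference -3.06, SE 0.12, adjusted p = 9.1e-09). Probe set 253500_at read 7.70, 7.10 and 8.70 in the mutant, against 80.4, 64.1 and 72.1 in the wild type (log2 difference -2.20, SE 0.16, adjusted p = 1.7e-05). Both lay below the absent-control maximum on every mutant array. Taking that maximum as the mutant level, 264374_at was at least 7.85-fold lower in the mutant under tZ and 253500_at at least 6.47-fold lower. Under DMSO both were again below the maximum in the mutant, with means of 1.71 ± 0.673 and 4.32 ± 2.93, against 53.4 ± 5.42 and 62.4 ± 7.85 in the wild type. Whether they measure a mutated gene could not be read from the annotation.

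Probe set 245532_at was the single call with the mutant higher. It read 338, 353 and 351 on the mutant tZ arrays, against 47.9, 56.5 and 49.6 on the wild type tZ arrays, a mean 6.77 times that of the wild type (log2 difference 2.55, SE 0.09, adjusted p = 9.1e-09). Under DMSO it read 366, 354 and 359 in the mutant, against 46.3, 49.8 and 63.7 in the wild type (log2 difference 2.56, SE 0.09, adjusted p = 8.8e-09). The level in each genotype was thus nearly the same with and without tZ, and the difference between the genotypes moved by -0.01 (SE 0.13). Of 253500_at it moved by 0.15 (SE 0.22), and of 264374_at by -0.62 (SE 0.17), since 264374_at was brighter with tZ in the wild type (87.6 ± 2.42 with tZ, 53.4 ± 5.42 with DMSO). None of these shifts passed over all probe sets (adjusted p = 1, 0.94 and 0.43).

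The other unnamed calls were not called under DMSO. Probe set 253245_at read 381, 367 and 361 on the mutant tZ arrays, against 729, 642 and 666 on the wild type tZ arrays (log2 difference -0.86, SE 0.07, adjusted p = 3.6e-05). Its DMSO means were 204 ± 14.8 in the mutant and 253 ± 3.45 in the wild type, which do not overlap either but missed the threshold (log2 difference -0.30, adjusted p = 0.17). Probe set 254235_at read 167, 209 and 181 in the mutant, against 277, 278 and 292 in the wild type under tZ (log2 difference -0.59, SE 0.09, adjusted p = 0.038). Its DMSO means were 56.6 ± 4.43 in the mutant and 54.8 ± 3.18 in the wild type. It is the call nearest the threshold and kept its call in 3 of the 12 fits that omit an array (adjusted p 0.021 to 0.26). The other 7 calls passed in all 22 alternative settings tried.

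Under DMSO, 3 of 22746 probe sets were called between the genotypes (0.0132%), and these were 245532_at, 264374_at and 253500_at. The other 5 calls under tZ, ARR15, ARR16, UGT76C2, 253245_at and 254235_at, were not. Without adjustment, 2162 probe sets had a limma p under 0.05 under DMSO, against 1265 under tZ. The SD of the log2 differences was 0.1875 under DMSO and 0.1637 under tZ, so more calls do not mean wider differences with tZ. The test of the difference between treatments called 0 probe sets (0%), with 1598 at an unadjusted p under 0.05. No call is thus shown to depend on tZ at this threshold. For all 5 calls made only under tZ, the log2 difference was lower with tZ than with DMSO, with changes of -1.23 to -0.56. They had been chosen for their deficit with tZ, and with DMSO ARR16 (0.10) and 254235_at (0.04) had no deficit. ARR16 passed the test of the difference between treatments in 5 of 20 alternative settings and ARR15 in 1.

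Side by side with their changes from DMSO to tZ, 6 of the 8 calls were higher with tZ in the wild type, where 18.2% of all probe sets were called higher, and 4 of the 8 were higher with tZ in the mutant, where 17.9% were. ARR15 changed by 3.00 in the mutant and by 4.23 in the wild type on the log2 scale. The values for UGT76C2 were 1.13 in the mutant and 1.82 in the wild type, those for 253245_at 0.83 and 1.39, and those for 254235_at 1.55 and 2.17. All 4 thus rose in both genotypes, with the smaller value in the mutant. ARR16 rose by 0.98 in the wild type (adjusted p = 1.8e-07) and changed by 0.12 in the mutant (adjusted p = 0.24). These changes share the tZ arrays with the comparison that chose the probe sets and are no separate evidence. The actin 5' to 3' ratio was 0.274 ± 0.0198 with tZ and 0.0503 ± 0.00866 with DMSO in the mutant, and 0.296 ± 0.0284 with tZ and 0.0499 ± 0.00515 with DMSO in the wild type, so in a change from DMSO to tZ the treatment and the array set cannot be told apart.

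**Figure D2:**
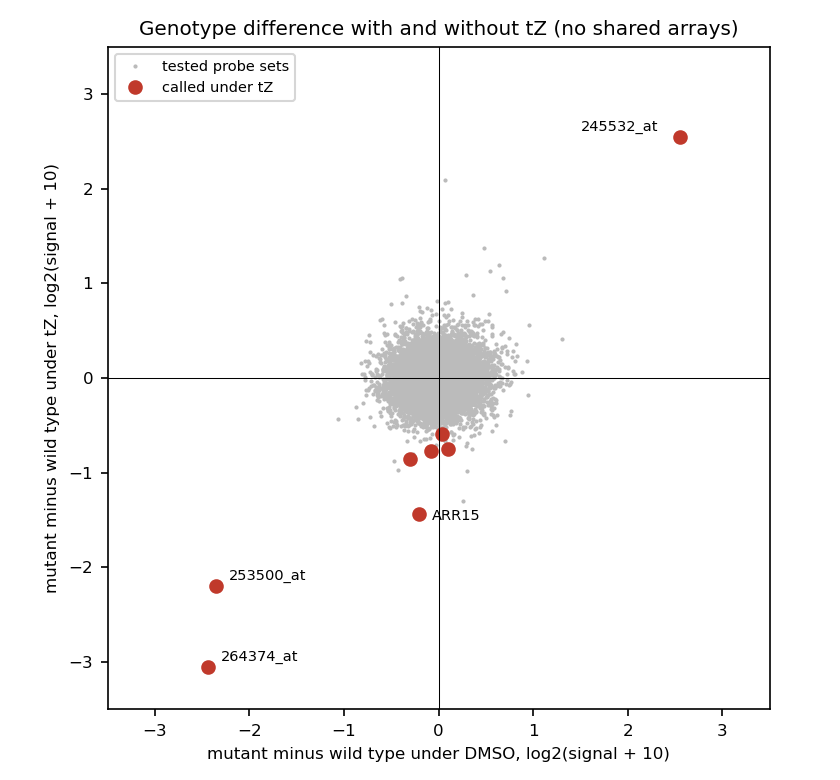
Log2 difference, mutant minus wild type on log2(signal + 10), under DMSO (horizontal axis) and under tZ (vertical axis) for each of 22746 probe sets, with the 8 calls under tZ in red. The 3 calls made under both treatments lie near the diagonal at both ends, while ARR15 and the other calls lie below 0 on the vertical axis and closer to 0 on the horizontal one.

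Across all 22746 probe sets the difference between genotypes under tZ correlated at r = 0.0742 (Spearman's rho 0.0415) with that under DMSO, and these comparisons have no array in common. Without the 8 calls r was 0.0477, and over the 9901 probe sets with a mean signal above 50 it was 0.129. The points here are probe sets that share arrays within each comparison, so they are no independent replicates.

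Most differences between the genotypes under tZ were small. The median log2 difference over all probe sets was -0.0021, and the 5th and the 95th percentile were -0.258 and 0.259. A difference of at least 2-fold on the log2(signal + 10) scale was found for 14 probe sets and one of at least 1.5-fold for 94. The precision depended on the signal: the median 95% interval reached 0.370 to either side on the log2 scale for the 7598 probe sets at or below the absent-control maximum and 0.169 for the 632 with a mean signal above 1000. The groups did not overlap for 1298 probe sets with the mutant higher (5.71%) and for 1539 with the mutant lower (6.77%), which is 12.5% in all. Where groups of 3 arrays do not differ, they separate in either direction with a probability of 0.1. Separate groups alone are thus weak evidence of a difference. Towards the smallest p the lower direction was the more frequent. It held 38 of the 50 probe sets with the smallest p, 69 of the first 100 and 125 of the first 200. Over all 22746 probe sets, 11528 differences lay below 0 and 11215 above. Beyond the calls, none of these probe sets passed.

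**Figure D3:**
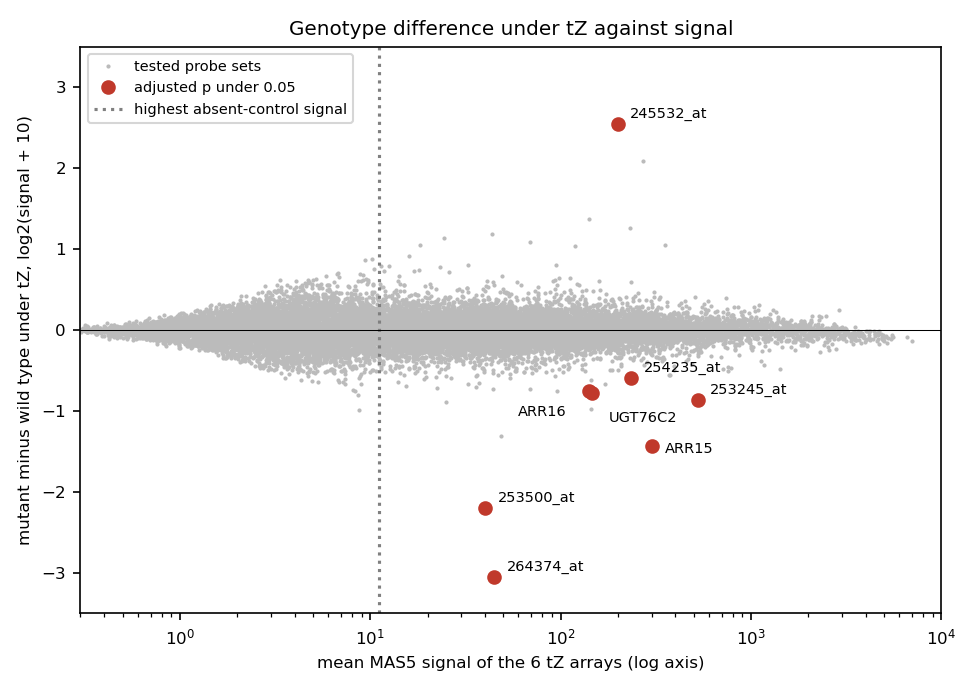
Log2 difference, mutant minus wild type under tZ on log2(signal + 10) (vertical axis), against the mean MAS5 signal of the 6 tZ arrays (horizontal log axis) for 22746 probe sets. Red points passed at an adjusted p under 0.05 and the dotted line is the highest absent-control signal of 11.2. Of the 8 calls 7 lie below 0, and all 8 means lie above the dotted line.

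The probe sets just outside the threshold were led by unnamed 249920_at. It read 91.0, 101 and 90.9 on the mutant tZ arrays, against 197, 182 and 207 on the wild type tZ arrays, and these groups lie far apart (log2 difference -0.98, SE 0.15, adjusted p = 0.0503). It passed in 9 of 22 alternatives, against 10 of 22 for 254235_at just inside. Of the next unnamed ones, 266606_at (-0.75), 263236_at (-0.38) and 250860_at (-1.31) were lower in the mutant and 264779_at (0.49) was higher, with adjusted p of 0.083 to 0.11. None of these passed. Under DMSO, 263236_at was separate in the same direction (log2 difference -0.22) but not called, and the groups of the other unnamed near misses overlapped.

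Among named probe sets whose groups did not overlap and whose brighter group lay above the absent-control maximum, 1180 in all, the 20 with the smallest p were examined. Of these 20, 18 were lower and 2 were higher in the mutant, where 627 of the 1180 were lower and 553 higher. Of the 20, 3 passed, with adjusted p up to 0.38 for the rest. AT1G69030 read 181, 179 and 168 in the mutant, against 218, 247 and 254 in the wild type (log2 difference -0.42, adjusted p = 0.083). AT1G21000, a zinc-binding protein gene of the PLATZ family, was 1 of the 2 in the other direction, at 59.1, 59.8 and 65.6 in the mutant, against 39.7, 41.3 and 43.8 in the wild type (log2 difference 0.47, adjusted p = 0.083). The other was AT3G22970 (log2 difference 0.44, adjusted p = 0.29). Under DMSO, AT1G69030 (-0.31) and AT1G21000 (0.22) were separate in the same directions as under tZ and AT3G22970 overlapped, and none was called there.

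AT5MAT, which malonylates anthocyanins, read 27.3, 33.4 and 31.7 in the mutant under tZ, against 66.6, 48.3 and 58.0 in the wild type (log2 difference -0.72, SE 0.13, adjusted p = 0.12). The next genes are grouped by role, which was done after their values were seen, and none was called. TOPII, the DNA topoisomerase II that untangles replicated DNA, averaged 92.0 ± 12.3 in the mutant and 129 ± 4.07 in the wild type (-0.46, adjusted p = 0.18). The chromatin protein gene 3xHMG-box2 averaged 204 ± 17.9 in the mutant and 260 ± 15.6 in the wild type (-0.34, adjusted p = 0.33). XTH32, a xyloglucan-modifying enzyme of the cell wall, averaged 242 ± 17.9 in the mutant and 323 ± 21.5 in the wild type (-0.40, adjusted p = 0.19), and the cell wall protein gene AT5G11420 averaged 1002 ± 120 in the mutant and 1349 ± 67.7 in the wild type (-0.43, adjusted p = 0.19). The CTP synthase gene AT1G30820 averaged 109 ± 7.45 in the mutant and 158 ± 11.6 in the wild type (-0.50, adjusted p = 0.12). Under DMSO, AT1G30820 was separate in the same direction, at 121 ± 7.05 in the mutant and 164 ± 20.6 in the wild type. XTH32, at 266 ± 25.6 in the mutant and 235 ± 5.09 in the wild type, and AT5MAT, at 19.8 ± 2.31 in the mutant and 14.4 ± 1.97 in the wild type, were separate in the other direction, and none of the 3 passed there. Each of these pairs of groups is separate under tZ, and none passed over 22746 tests.

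**Figure D4:**
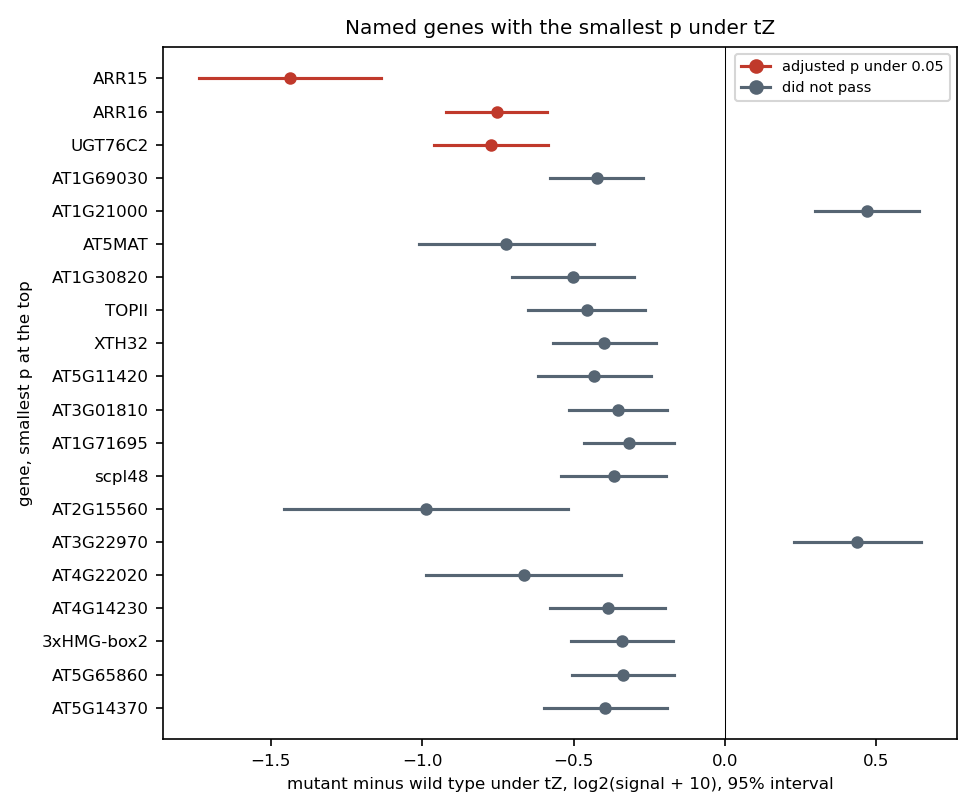
Log2 difference, mutant minus wild type under tZ on log2(signal + 10) (horizontal axis), with its 95% interval for the 20 named genes of smallest p among those with separate groups, the smallest at the top. ARR15, ARR16 and UGT76C2 passed (red), 18 of the 20 lie below 0, and the intervals of all 20 exclude 0 because the genes were chosen by p.

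By size, and still among the 1180 named probe sets with separate groups, the 10 largest deficits in the mutant ran from -1.44 to -0.64, and 3 of them passed. In 6 of these 10 the wild type mean was under 50. The second largest was AT2G15560, which read 0.50, 2.73 and 4.59 in the mutant, against 13.8, 17.4 and 13.3 in the wild type, so that every mutant array lay below the absent-control maximum (-0.99, adjusted p = 0.29). The 10 largest excesses among them ran from 0.56 to 0.87 and none passed (adjusted p 0.43 to 0.95). All 10 had group means under 50. The first by size was AT5G15360, at 10.2, 14.2 and 23.9 in the mutant and 10.1, 1.06 and 2.08 in the wild type. The part that dim signal had in these missed thresholds was not tested.

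Few genes of the cytokinin pathway were measured by name. Of 10 listed type-A regulators 2 were measured and both were called lower, where 0.0308% of all probe sets were. Their median log2 difference was -1.10 under tZ and -0.05 under DMSO. Of 11 listed type-B regulators 2 were measured and 0 were called. ARR18 averaged 5.78 ± 4.48 in the mutant and 1.04 ± 0.401 in the wild type (log2 difference 0.47, 95% interval -0.0027 to 0.95, adjusted p = 0.90). ARR19 averaged 1.09 ± 0.579 in the mutant and 3.87 ± 1.28 in the wild type (-0.32, 95% interval -0.68 to 0.04, adjusted p = 0.94). Both lay below the absent-control maximum on every tZ array. The lists of receptors and phosphotransfer proteins, of cytokinin response factors and of cytokinin synthesis had no measured member and were not analysed here.

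Of 16 other known cytokinin-induced genes 5 were measured, UGT76C2 among them. All 5 differences lay below 0, where 11528 of all 22746 did, with a median of -0.49, against -0.0021 over all probe sets. Of the 5, 1 was called lower, UGT76C2, a call already given above, where 0.0308% of all probe sets were. The list was chosen with earlier results of these data known, so it is no separate evidence. AT2G40230, an acyltransferase gene, read 56.6, 57.5 and 40.4 in the mutant, against 77.7, 77.7 and 75.7 in the wild type (log2 difference -0.51, SE 0.17, adjusted p = 0.66). The glutaredoxin gene GRXS6 averaged 34.7 ± 5.32 in the mutant and 52.9 ± 6.69 in the wild type (-0.49, SE 0.26, adjusted p = 0.95). Both pairs of groups are separate with the mutant lower, where 6.77% of all probe sets were. The transcription factor gene TINY2 overlapped, with means of 28.9 ± 2.41 in the mutant and 33.9 ± 8.70 in the wild type (-0.16), and so did HCT of lignin synthesis, at 423 ± 27.7 and 425 ± 37.0 in the same order (-0.0049, 95% interval -0.18 to 0.17). The measured genes of cytokinin breakdown and conjugation were 3 of 12, of which UGT76C2 was called lower and UGT76C1 and the dim UGT73C1 were not called.

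Of 48 measured UDP-glycosyltransferases, the enzyme family of UGT76C2, 1 was called and the median was -0.05. The groups were separate with the mutant lower for 10 and higher for 4 of the 48, where 6.77% of all probe sets were separate and lower and 5.71% separate and higher. The brighter group mean lay above the absent-control maximum for only 26 of the 48. Below it were UGT84A1, UGT71B5 and UGT73B4 among those lower, and UGT74F1 and UGT71C3 among those higher. The brighter ones that were lower included UGT75C1 and UGT78D2, which act on anthocyanins, and UGT85A5 (17.9 in the mutant and 29.2 in the wild type, on average). The 3 measured of 11 anthocyanin synthesis genes were DFR, UF3GT and UGT75C1, and 0 were called. DFR, which reduces dihydroflavonols, read 269, 373 and 258 in the mutant, against 574, 410 and 362 in the wild type, with overlap (-0.56, SE 0.16, adjusted p = 0.51). UF3GT averaged 148 ± 20.4 in the mutant and 216 ± 57.1 in the wild type (-0.49, adjusted p = 0.73), and UGT75C1 averaged 111 ± 24.9 in the mutant and 176 ± 48.3 in the wild type (-0.62, adjusted p = 0.48).

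The 3 measured anthocyanin genes had differences of the other sign without tZ, and none passed there either (adjusted p = 0.27 for DFR, 0.32 for UF3GT and 0.57 for UGT75C1). The list's median was -0.56 under tZ and 0.57 under DMSO, on arrays not shared between these comparisons. Under DMSO, DFR averaged 329 ± 29.6 in the mutant and 219 ± 25.6 in the wild type, and UF3GT averaged 184 ± 18.7 in the mutant and 119 ± 33.7 in the wild type. The test of the difference between treatments gave -1.13 (SE 0.23, adjusted p = 0.28) for DFR, -1.10 (SE 0.27, adjusted p = 0.43) for UF3GT and -0.96 (SE 0.25, adjusted p = 0.43) for UGT75C1, none of which passed. Wild type tZ replicate 1 was the highest of the 6 tZ arrays for DFR, UF3GT and UGT75C1, and without it the differences under tZ were -0.37, -0.30 and -0.41.

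**Figure D5:**
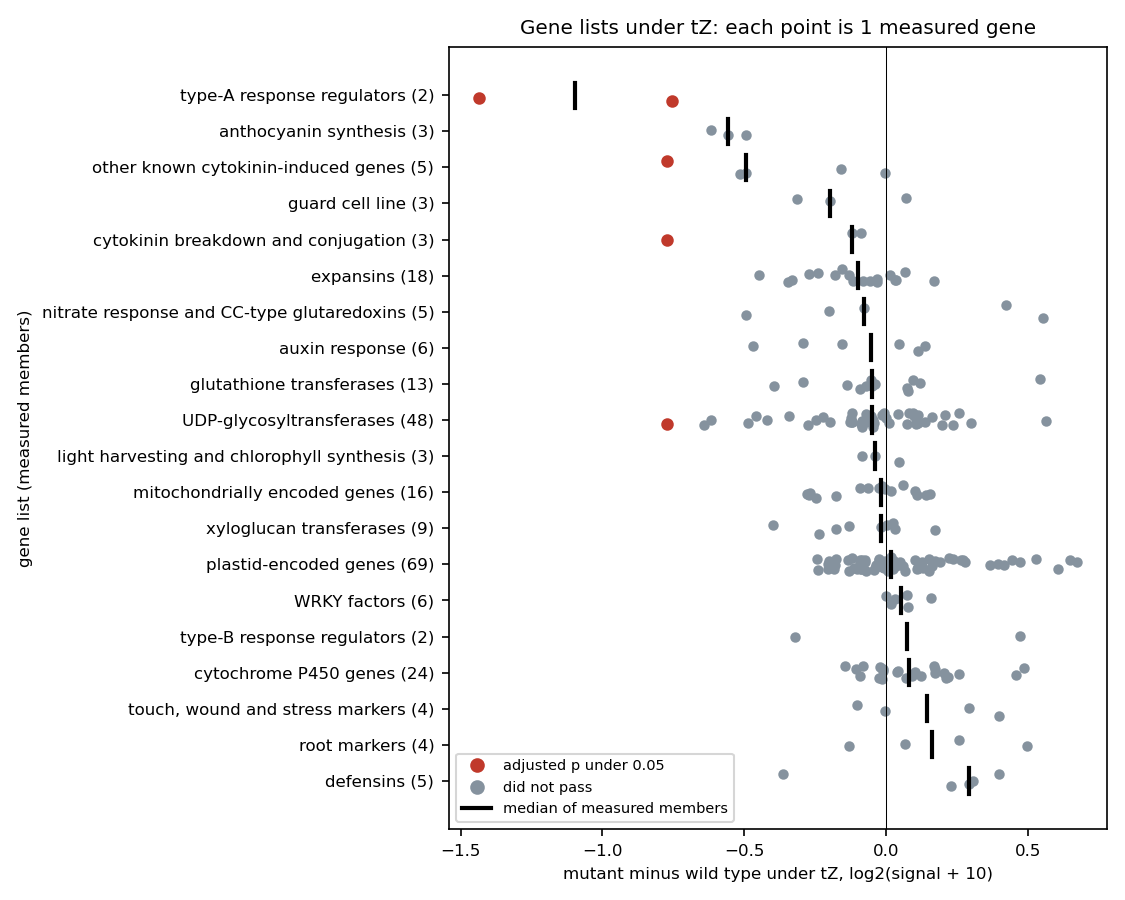
Log2 difference, mutant minus wild type under tZ on log2(signal + 10) (horizontal axis), of each measured gene in the lists with at least 2 measured members, with the list's median as a black bar. The number of measured members stands after each list's name. Genes that passed are red and occur in the lists that hold ARR15, ARR16 and UGT76C2, and the type-A regulators have the lowest median of -1.10.

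Other gene groups held no call between the genotypes under tZ. The 6 measured auxin response genes had a median of -0.05, and 1 of them was separate, where 12.5% of all probe sets were in either direction. That gene, GH3.3, encodes an auxin-conjugating enzyme and averaged 42.2 ± 6.40 in the mutant and 63.0 ± 15.7 in the wild type (-0.47, adjusted p = 0.68). The 18 expansins, proteins that loosen cell walls, had a median of -0.10, and 2 were separate with the mutant lower, a count near the 6.77% of all probe sets that were. EXPA4 averaged 144 ± 8.67 in the mutant and 176 ± 6.32 in the wild type (-0.27, adjusted p = 0.89), and EXPB1 averaged 19.9 ± 4.33 in the mutant and 30.6 ± 1.98 in the wild type (-0.45, adjusted p = 0.67). Of the 3 genes of the guard cell line, SPCH, which starts the lineage, averaged 44.6 ± 2.17 in the mutant and 58.2 ± 8.17 in the wild type (-0.31, adjusted p = 0.67), and FAMA (-0.20) and MUTE (0.07) did not pass. Under DMSO, SPCH was separate in the other direction, at 52.3 ± 1.53 in the mutant and 46.8 ± 4.40 in the wild type (limma adjusted p = 0.74).

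The glutaredoxin genes of the nitrate response did not share a direction. GRXS8 averaged 36.2 ± 5.26 in the mutant and 24.6 ± 5.45 in the wild type (0.42, adjusted p = 0.95), GRXS4 read 40.9, 32.8 and 93.1 in the mutant and 29.5, 18.2 and 53.8 in the wild type (0.55, adjusted p = 0.95), and GRXS6, in both lists, lay below 0. These paralogs can share signal. Among light harvesting and chlorophyll synthesis genes, LHCB4.1 averaged 4720 ± 389 in the mutant and 5001 ± 300 in the wild type (-0.08, 95% interval -0.27 to 0.10), and LHCB4.2 (0.04) and PORB (-0.04) also overlapped. The 24 measured cytochrome P450 genes had a median of 0.08, the 13 glutathione transferases -0.05, the 9 xyloglucan transferases -0.02 and the 6 WRKY factors 0.05, with 0 called in each. In bulk shoots, fewer cells of a type and less RNA per cell cannot be told apart.

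Of the 69 measured plastid-encoded genes, 0 were called and the median log2 difference was 0.02, and it was -0.02 without mutant tZ replicate 1. On that array some of these genes read high, and psbN and ndhG are given as examples chosen after their values were seen. There psbN read 310, against 69.1 and 73.3 on the other mutant tZ arrays and 86.0, 66.9 and 63.9 in the wild type. The NADH dehydrogenase-like gene ndhG read 400.4 there, against 118 and 102 on the other mutant tZ arrays and 119, 87.7 and 122 in the wild type. The fitted differences were 0.65 for psbN and 0.61 for ndhG, and -0.01 and 0.01 without that array.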

How the data were processed

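Per the submitters' processing notes, the authors made the deposited values with MAS5 (version not given in the sources used here), as 1 signal intensity for each probe set on a linear scale, and every array had a 2% trimmed mean of 100.0 after rounding. No detection calls were used here. From these intensities log2(signal + 10) was fitted in limma 3.58.1 (R 4.3.3) with 1 mean per group over all 12 arrays and a variance trend on signal, tested two-sided with Benjamini-Hochberg adjustment over 22746 probe sets. The fit was also run on simulated data with errors drawn independently for each probe set and array, which cannot show deviations shared within an array. Of these probe sets 13513 name 1 gene in the platform annotation, 503 several and 8730 none, and 13436 matched a RefSeq locus (TAIR10.1). The brightest probe set stood for a gene in a list. Tables were read with pandas 2.3.3 and plotted with matplotlib 3.10.9. Genes named are the calls, the response regulators, the 10 largest separate differences each way, the 20 smallest p, up to 4 members of each list and 5 unnamed near misses. The members, lists and this rule were chosen with earlier results of these data known. Precision is limited by the number of arrays, 3 per group. Sequences were not used here.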

Additional observations from a re-analysis of the deposited data

How the results depend on the processing

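The count of 8 calls under tZ was 7 to 11 with 1 array left out, 15 without the dimmest 40% of probe sets and 22 with array weights (18 lower and 4 higher in the mutant). Of the 8, 7 passed in all 22 alternatives. 254235_at passed in 10, with adjusted p of 0.011 to 0.26, and was lost without a variance trend, with only the 2 groups compared, at the stricter threshold and in 9 fits that omit an array. At an adjusted p of 0.01 there were 7 calls. Under DMSO the 3 calls became 18 without the dimmest 40% and 3 to 10 with 1 array left out, 10 of them without wild type DMSO replicate 1. The difference between treatments called 0 probe sets, but 1 with a pseudocount of 1, 2 with a pseudocount of 50, 1 with quantile normalization, 1 without the dimmest 40% and 0 to 1 with 1 array left out. All of these were ARR16, joined by ARR15 at a pseudocount of 50. Fewer probe sets are tested without the dimmest 40%, and the cause of the other shifts was not tested. The tZ values showed no pairing by replicate number, which does not settle how the arrays were made. Deviations of same-numbered mutant and wild type tZ arrays correlated at 0.002, 0.008 and 0.04. With a replicate block the count under tZ was 8 (all 8 shared), under DMSO 4 and for the difference 0. Of 109 named probe sets 17 changed sign in some alternative, none of them a call, and 10 passed only in alternatives. With 1 array left out the differences ran over -0.070 to 0.041 for CLV3, -0.23 to 0.14 for COR15A, -0.023 to 0.18 for EXPA18, -0.22 to 0.031 for EXPA7, -0.053 to 0.26 for GI, -0.32 to 0.038 for GRXS5, -0.0066 to 0.26 for IAA29, -0.022 to 0.13 for LHCB4.2, -0.065 to 0.15 for MUTE, -0.49 to 1.24 for PDF1.2, -0.47 to 0.97 for PDF1.2b, -0.15 to 0.027 for PORB, -0.28 to 0.098 for UGT73C1, -0.078 to 0.091 for WRKY22, -0.077 to 0.34 for XTH19, -0.49 to 0.063 for XTH33 and -0.32 to 0.036 for ZAT10. WRKY22 was -0.011 with array weights, and COR15A 0.0007 at a pseudocount of 50 and 0.0005 with a common median. By median, the 95% interval was widest for dim probe sets, but that of the brighter PDF1.2 was wider still, at -1.11 to 1.91. The planned display of promoters and proteins was not run.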

Other observations

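In all, 14 probe sets differed by at least 2-fold on the log2(signal + 10) scale under tZ, 10 higher and 4 lower in the mutant, and 4 of them were calls. The groups were separate for 6. The largest difference that was not called was that of unnamed 266385_at, whose groups overlap. It read 537, 400 and 297 on the mutant tZ arrays, against 41.9, 305 and 44.0 on the wild type tZ arrays (log2 difference 2.09, limma adjusted p = 0.43). Unnamed 267461_at was separate but not called, at 129, 131 and 234 in the mutant, against 50.7, 91.6 and 77.7 in the wild type (1.05, adjusted p = 0.43). The named ones among the higher were OSM34, an osmotin-like protein, AT2G43620 of the chitinase family, AT4G12490, which resembles lipid transfer proteins, and AT1G65500. They varied between the arrays of a group, and none was called. AT2G43620 read 185, 361 and 80.6 on the mutant tZ arrays, against 27.5, 118 and 68.2 on the wild type tZ arrays (log2 difference 1.38, limma adjusted p = 0.85), and the difference was 0.91 without wild type tZ replicate 1. AT4G12490 read 58.6, 103 and 31.8 in the mutant, against 7.27, 36.8 and 23.4 in the wild type (1.19, adjusted p = 0.85). OSM34 read 37.0, 41.0 and 9.28 in the mutant, against 4.02, 10.1 and 8.18 in the wild type (1.06, adjusted p = 0.66). Unnamed 254805_at read 255, 526 and 89.5 in the mutant, against 5.69, 329 and 181 in the wild type, with a difference of 1.27 that became -0.07 without wild type tZ replicate 1. The highest mutant array was replicate 2 for each of these 4 probe sets, and the lowest wild type array was replicate 1.

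Defensin genes spread widely between arrays of 1 group. PDF1.2 read 1949, 445 and 203 on the mutant tZ arrays, against 254, 1391 and 213 on the wild type tZ arrays (log2 difference 0.40, 95% interval -1.11 to 1.91). PDF1.2b read 2033, 618 and 273 in the mutant, against 369, 1484 and 340 in the wild type (0.29, 95% interval -1.06 to 1.64). In each group 1 array was far above the others, replicate 1 in the mutant and replicate 2 in the wild type. The probe sets of these paralogs can share signal. On mutant tZ replicate 1 there were 17 probe sets at least 2-fold above both other arrays of its group and on wild type tZ replicate 2 there were 14, against 0 to 4 on the other 4 tZ arrays. At least 2-fold below both other arrays of the group were 17 probe sets on mutant tZ replicate 3 and 15 on wild type tZ replicate 1, against 0 to 4 on the other 4.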
